A study of Mus musculus with 12 samples.

Results

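Chemokines are small secreted proteins that attract and position cells, and 10 of their genes are described here across the differentiation of mouse embryonic stem cells: Ccl2, Ccl3, Ccl4, Ccl6, Ccl7, Ccl9, Cxcl1, Cxcl10, Cxcl12 and Pf4. They were chosen by name, with earlier results of these data known. Each gene was read through every non-control probe whose RefSeq accession belongs to it. This gave 12 probes among the 41174 on the array and 10 genes among 31758. The study set total RNA of undifferentiated mouse embryonic stem cells (mESC) against RNA taken 9 and 14 days into cardiomyocyte differentiation, with 4 arrays in each of the 3 groups. Per the labels, cells were grown in plates coated with crosslinked elastin-like polypeptide (ELP), an engineered protein matrix, first in medium without leukaemia inhibitory factor and then in medium with serum replacement. The labels repeat this text, and the cell type of embryonic stem cells, for all 12 samples, so the plate and medium of the mESC samples are known only as far as that text goes. No label says whether the 4 samples of a group came from separate cultures, and p-values therefore measure only how far these samples scatter, and that scatter may be technical. Per the file headers each group was scanned as 1 slide of its own, so a difference between groups and one between slides cannot be told apart.

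Chemokines signal through receptors that couple to G proteins on the cell that senses them, and the spacing of conserved cysteines divides most of them into the CC (Ccl) and CXC (Cxcl) families. Inflammatory chemokines are low in resting tissue and are induced in macrophages, fibroblasts and endothelial cells by cytokines and microbial products, largely through NF-kappaB, AP-1 and interferon-activated factors. Homeostatic ones such as Cxcl12 are made steadily by stromal cells. In the embryo Cxcl12 guides migrating progenitors, and in the heart the chemokines of macrophages and fibroblasts are best known for recruiting monocytes and neutrophils after injury.

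Values are the log2 of the background-subtracted signal relative to the 75th percentile of its array, so 0 is the brightness of that percentile, and they are compared between groups for the same probe and not between genes. The 75th percentile lay between 346.8 and 386.4 signal units in mESC, between 394.9 and 438.5 at day 9 and between 462.7 and 507.9 at day 14. Between 59.49% and 67.87% of the probes on an array lay well above background. The markers of pluripotent stem cells marked the mESC group, with a summed signal of 276 to 295 times the 75th percentile against 42.7 to 49.9 at the later days. All 8 cardiomyocyte markers were called higher at both days against mESC, where 20.1% and 22.8% of all tested genes were.

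All 10 genes were called higher at day 14 than in mESC, and most were undetected in mESC. Only Ccl3 and Pf4 stood clear of background on 3 or more mESC arrays, and 7 genes were above it on no mESC array. At day 9 and at day 14 all 10 were above background on at least 3 arrays. A gene was called changed at an adjusted p under 0.05 (limma, Benjamini-Hochberg over 20875 genes) with a log2 change of at least 1. At day 9 against mESC 9 of the 10 genes were called higher, where 20.1% of all tested genes were (41% were called either way). At day 14 against mESC 10 of 10 were called higher, against 22.8% of all genes (46.8% either way), and at day 14 against day 9 it was 9 of 10, against 10.2% (13.8% either way). All but Ccl3 and Pf4 could be tested only through the later days, and the 10 were chosen with earlier results known. The counts against mESC were therefore partly fixed in advance. The median log2 change of the 10 genes was 2.31, 6.64 and 2.55 in these comparisons, and that of all tested genes was -0.16, -0.19 and -0.09. Because 7 of the genes start below background, the day 9 count depends on values under it: with every value raised to the dimmest signal well above background on its array, 5 genes (Ccl2, Ccl7, Cxcl10, Cxcl12 and Pf4) were called higher at day 9, and the other counts stayed at 10 and 9. That setting was chosen after the data were seen, and under it 7782 of the 20875 genes were called either way at day 9. With normexp, another background correction, 3 genes (Ccl2, Cxcl12 and Pf4) were called higher at day 9, and Ccl7 (0.70) and Cxcl10 (0.78) were not. Of the 20875 genes, 4744 were called either way at day 9 with normexp.

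**Figure D1:**
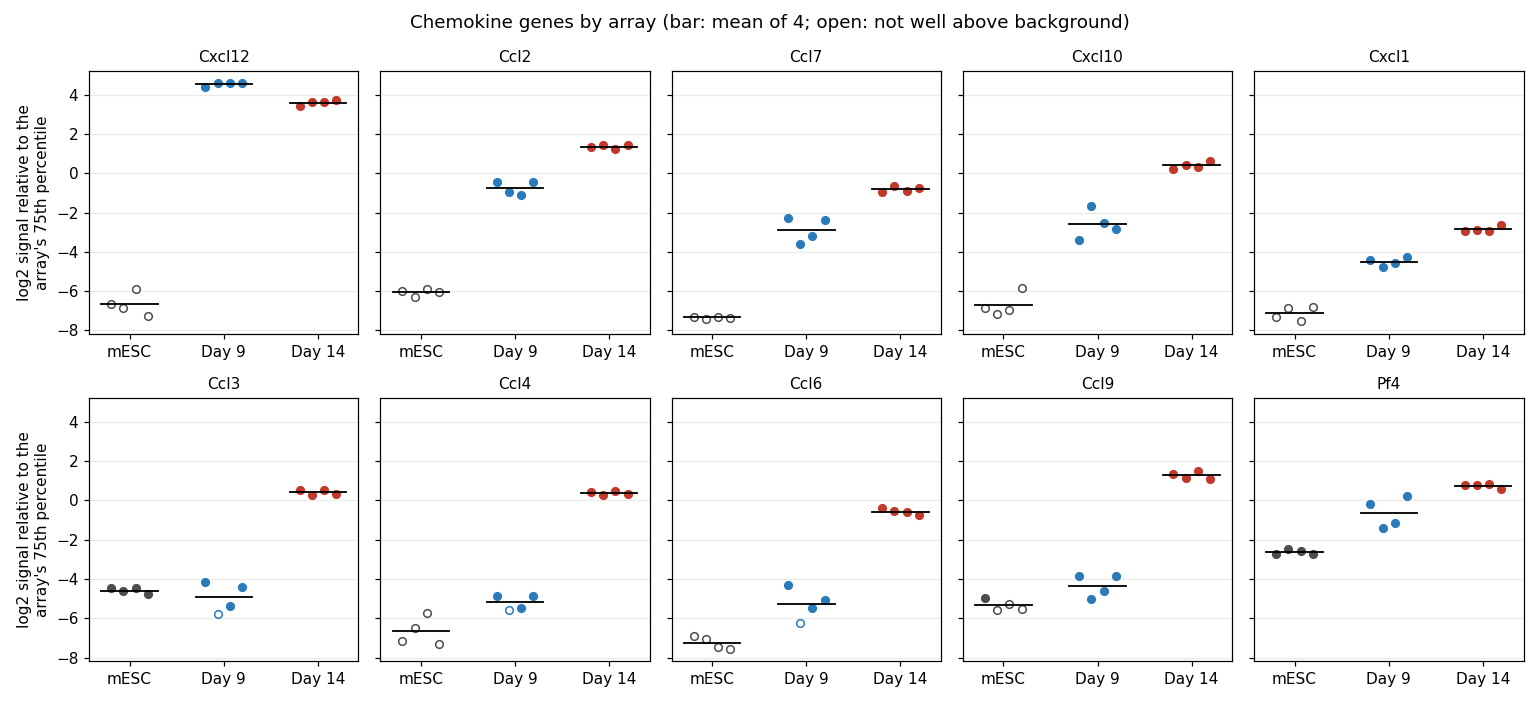
Log2 signal relative to the array's 75th percentile (vertical axis) on each of the 12 arrays by group (horizontal axis), 1 panel per gene, with a bar at the mean of 4 arrays and open circles where the probe was not well above background. Cxcl12 reached its high level by day 9 (mean 4.54), Ccl2, Ccl7 and Cxcl10 lay between their mESC and day 14 levels at day 9, and Ccl3, Ccl4, Ccl6 and Ccl9 stayed low at day 9 and were high at day 14.

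The genes followed different time courses, and those of one time course tended to be neighbours on a chromosome. In the GRCm38.p6 annotation Ccl2 and Ccl7 lie side by side on chromosome 11, while Ccl9, Ccl6, Ccl3 and Ccl4 share another cluster on the same chromosome. Pf4 and Cxcl1 share a cluster on chromosome 5, Cxcl10 lies in a separate one there, and Cxcl12 stands alone on chromosome 6. The Euclidean distance between patterns over the 12 arrays, after each gene was centred on its mean, was smallest for Ccl2 and Ccl7 (1.59), then for Ccl4 and Ccl9 (1.64), Ccl6 and Ccl9 (1.76), and Cxcl1 and Pf4 (1.81). Each of these pairs shares a cluster, and the points share their arrays. Not every distance followed the clusters. Ccl3 lay 2.49 from Ccl9 but 3.46 from Ccl4 and 3.45 from Ccl6, whereas Cxcl10, on another chromosome, lay 2.68 from Ccl2 and 2.87 from Ccl7. The distances include mESC values below background.

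Ccl2 and Ccl7 encode the monocyte chemoattractants MCP-1 and MCP-3, which act on Ccr2. Ccl2 read -6.01, -6.32, -5.87 and -6.04 in mESC, where no array was above background, then -0.46, -0.93, -1.11 and -0.46 at day 9 and 1.33, 1.43, 1.22 and 1.42 at day 14. The groups did not overlap and every day 14 array was above every day 9 array. Ccl2 was at least 24.6-fold higher at day 9 than in mESC (adjusted p = 2.67e-11, limma) and at least 105-fold higher at day 14 (adjusted p = 1.63e-12). Such a bound sets the group's mean against the dimmest signal well above background on each dim array. Between the days Ccl2 rose by 2.09 ± 0.15 (log2, SE; 4.26-fold; adjusted p = 4.47e-07).

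Ccl7 showed the same course on both of its probes. On the brighter probe it read -7.34 ± 0.05 (SD, n = 4) in mESC, below background on all 4 arrays. At day 9 the arrays read -2.28, -3.61, -3.20 and -2.39, and at day 14 they read -0.95, -0.65, -0.90 and -0.73. Replicates 1 and 4 were the high arrays at day 9, as they were for Ccl2, and the groups did not overlap. Ccl7 was at least 5.62-fold higher at day 9 and at least 23.5-fold higher at day 14 than in mESC (adjusted p = 9.28e-09 and 2.59e-10, limma), and it rose by 2.06 ± 0.25 (SE) between the days (adjusted p = 2.59e-05). The other probe rose by 1.88 ± 0.32 between the days.

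Ccl3, Ccl4, Ccl6 and Ccl9 make up the late group. Ccl3 and Ccl4 encode MIP-1 alpha and MIP-1 beta, which activated macrophages secrete, and Ccl6 and Ccl9 are rodent CC chemokines of myeloid cells that act on Ccr1. Ccl3 was faintly present in stem cells: it read -4.46, -4.63, -4.47 and -4.76 in mESC, above background on all 4 arrays. At day 9 it read -4.13, -5.80, -5.37 and -4.39, with replicate 2 below background, and at day 14 it read 0.53, 0.28, 0.51 and 0.34. The day 9 arrays lay on both sides of the mESC arrays, and Ccl3 was the 1 gene of the 10 not called at day 9 (log2 change -0.34 ± 0.31, SE; adjusted p = 0.313, limma). At day 14 it was 31.9-fold higher than in mESC (adjusted p = 1.87e-08) and higher by 5.34 ± 0.31 on the log2 scale than at day 9 (adjusted p = 7.76e-08).

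Ccl4 was below background on all mESC arrays (-5.70 to -7.29) and read -4.86, -5.58, -5.46 and -4.85 at day 9, where replicate 2 was again below background. Its day 14 arrays stood at 0.46, 0.30, 0.47 and 0.33. The rise between the days was 5.58 ± 0.31 (log2, SE; adjusted p = 6.59e-08, limma), and Ccl4 was at least 53.9-fold higher at day 14 than in mESC. Its call at day 9 rests on signal near background, with a bound of at least 1.13-fold.

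Ccl6 lay at -6.89, -7.02, -7.47 and -7.58 in mESC, all below background. At day 9 it spread over -4.32, -6.23, -5.46 and -5.07, a day 9 spread (SD 0.797) like that of Ccl3 (SD 0.792), and at day 14 over -0.39, -0.56, -0.58 and -0.72. No day 9 array came near a day 14 array. Ccl6 rose by 4.71 ± 0.33 between the days (log2, SE; adjusted p = 3.66e-07, limma), and at day 14 it was at least 27.9-fold higher than in mESC. At day 9 the bound was at least 1.07-fold.

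Ccl9 made the largest step between the days of the 10 genes, ahead of Ccl4 by less than the SE of either. Its arrays read -4.98, -5.56, -5.28 and -5.50 in mESC, with replicate 1 alone above background. They read -3.84, -5.02, -4.60 and -3.84 at day 9 and 1.37, 1.15, 1.51 and 1.07 at day 14. The difference between the days was 5.60 ± 0.25 (log2, SE), or 48.6-fold (adjusted p = 1.17e-08, limma). At day 9 the groups overlapped, the change of 1.00 ± 0.25 sat on the threshold, and the call was lost without mESC replicate 2 (0.92) or 4 (0.94) and without day 9 replicate 1 or 4 (0.84 each). It was also lost with quantile normalization (0.93), median scaling (0.87), normexp (0.12) and raised dim values (0.95).

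For Ccl9 and for the CXC genes below, the bases before the start site are shown to set the motifs found there beside the time courses. RefSeq promoter windows of GRCm38.p6, from 250 bases before to 50 after the start, were found for 7 of the 10 genes and not for Ccl2, Ccl4 and Ccl7. Both strands were searched for GGANTTNCC (an NF-kappaB site), GAAANNGAA (the core of an interferon response element), GAGGAAGT (a PU.1 core, which sits in myeloid promoters), TGANTCA (AP-1), TTGCNNAA (C/EBP) and TATAAA. These occur in 3.95%, 8.56%, 3.2%, 7.81%, 10.8% and 13.6% of 32851 windows. In the Ccl9 window, the TGANTCA pattern matched at -53 to -47, with A at its open base. That match and 2 overlapping TATAAA matches from -94 to -87, in capitals, stand upstream of the start. Another TATAAA match lies farther up at -224 to -219, above the stretch shown (chr11:83578637-83578786, minus strand).
Ccl9: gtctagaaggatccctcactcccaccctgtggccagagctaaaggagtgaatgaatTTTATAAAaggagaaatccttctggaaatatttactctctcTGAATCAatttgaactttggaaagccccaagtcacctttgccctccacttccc
Of the genes with the same course, the Ccl3 window held the interferon core on the reverse strand at -39 to -31, and the Ccl6 window held none of the 6 motifs. The Cxcl12 window also held none, which says only that these letters are not in it.

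Cxcl10 encodes IP-10, an interferon-induced ligand of Cxcr3 that draws T cells. Its upstream bases are shown because they alone among the 7 windows hold 3 of the motifs, in capitals from 5′ to 3′: the interferon response core at -213 to -205, NF-kappaB matches at -158 to -150 (reverse strand) and at -102 to -94, and AP-1 at -74 to -68 (chr5:92348890-92349139, minus strand).
Cxcl10: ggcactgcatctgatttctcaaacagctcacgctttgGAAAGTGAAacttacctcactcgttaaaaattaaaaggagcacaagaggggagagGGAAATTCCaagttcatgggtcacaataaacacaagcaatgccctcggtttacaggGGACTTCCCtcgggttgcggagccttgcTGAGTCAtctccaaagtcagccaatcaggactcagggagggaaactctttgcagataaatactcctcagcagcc
Cxcl10 was below background on all mESC arrays (-5.82 to -7.16), read -3.40, -1.67, -2.52 and -2.82 at day 9 and 0.22, 0.40, 0.34 and 0.63 at day 14. The 3 groups did not overlap. It was at least 6.78-fold higher at day 9 and at least 54.3-fold higher at day 14 than in mESC (adjusted p = 5.6e-07 and 3.16e-09, limma), and 8.01-fold higher at day 14 than at day 9 (3.0 ± 0.36, log2, SE; adjusted p = 2.42e-05). Its order over the day 9 arrays differed from that of the CC genes: replicate 2 was highest and replicate 1 lowest.

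Cxcl1 and Pf4 had the smallest log2 changes of the 10 genes at day 14 against mESC (4.26 and 3.37). Cxcl1 encodes KC, a neutrophil attractant that acts on Cxcr2, and Pf4 encodes platelet factor 4, stored in platelet granules and also made by some macrophages. The stretch before Cxcl1 carries an NF-kappaB match at -70 to -62 (chr5:90891095-90891244, plus strand), the other of the 2 windows with that motif, and the stretch before Pf4 carries the PU.1 core on the reverse strand at -10 to -3 (chr5:90772285-90772434, plus strand). Capitals mark both, and the Pf4 window also holds a C/EBP match at -212 to -205, above the stretch shown.
Cxcl1: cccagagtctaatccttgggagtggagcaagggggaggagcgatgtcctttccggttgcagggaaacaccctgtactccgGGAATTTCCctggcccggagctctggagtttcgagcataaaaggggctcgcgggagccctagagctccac
Pf4: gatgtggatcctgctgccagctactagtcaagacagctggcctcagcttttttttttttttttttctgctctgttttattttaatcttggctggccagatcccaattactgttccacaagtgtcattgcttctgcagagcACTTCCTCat
Cxcl1 was below background on all mESC arrays (-6.82 to -7.50) and read -4.42, -4.79, -4.56 and -4.27 at day 9 and -2.96, -2.91, -2.93 and -2.61 at day 14. It was at least 1.81-fold higher at day 9 and at least 5.7-fold higher at day 14 than in mESC (adjusted p = 2.86e-08 and 2.9e-10, limma). Between the days it rose by 1.66 ± 0.16 (log2, SE), or 3.15-fold (adjusted p = 5.77e-06), with no overlap.

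Pf4 was the gene most clearly present in mESC, above background on every array of the study. It read -2.74, -2.46, -2.57 and -2.75 in mESC, -0.16, -1.42, -1.14 and 0.22 at day 9 and 0.79, 0.77, 0.86 and 0.57 at day 14. Replicates 1 and 4 of day 9 came close to day 14, and replicates 2 and 3 stood midway, yet no groups overlapped. Pf4 was 4.01-fold higher at day 9 (2.01 ± 0.30, log2, SE; adjusted p = 6.78e-05, limma) and 10.4-fold higher at day 14 than in mESC (adjusted p = 6.15e-07), with a 2.58-fold difference between the days (adjusted p = 0.00211).

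Cxcl12 encodes SDF-1, the ligand of Cxcr4 and of the scavenging receptor Ackr3, and it was the only gene of the 10 not called between the days. The probe annotated to NM_001012477 was below background in mESC (-6.64, -6.83, -5.88 and -7.25), stood at 4.40, 4.60, 4.57 and 4.59 at day 9 and at 3.43, 3.60, 3.64 and 3.72 at day 14. Every day 14 array was thus below every day 9 array. Cxcl12 was at least 958-fold higher at day 9 and at least 497-fold higher at day 14 than in mESC (adjusted p = 1.79e-12 and 2.98e-12, limma), the largest bounds of the 10 genes. The change between the days, -0.95 ± 0.22 (SE), had an adjusted p of 0.00335 and missed the fold threshold. With median scaling it was -1.14 and with normexp -1.05, and in both it passed.

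The probe annotated to NM_021704 gave the opposite sign between the days. It was below background in mESC (-6.64 to -7.28), read 0.81, 0.76, 0.72 and 0.92 at day 9 and 1.61, 1.71, 1.62 and 1.80 at day 14, again with no overlap. Its change was 0.89 ± 0.12 (SE; adjusted p = 7.21e-05, limma over probes), also short of the threshold. Within each array the difference between both probes was 3.74 ± 0.13 (SD, n = 4) at day 9 and 1.91 ± 0.08 at day 14. The change between the days therefore differed between the probes by -1.83, and the exact two-sided permutation test over arrays gave p = 0.0286, the smallest that 4 against 4 allows. The same exact permutation test for the 2 probes of Ccl7 gave a difference of 0.19 and p = 0.0571. Both p-values come from a family of 2 and the test was chosen after the values were seen. Whether the Cxcl12 probes read different transcripts was not tested.

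**Figure D2:**
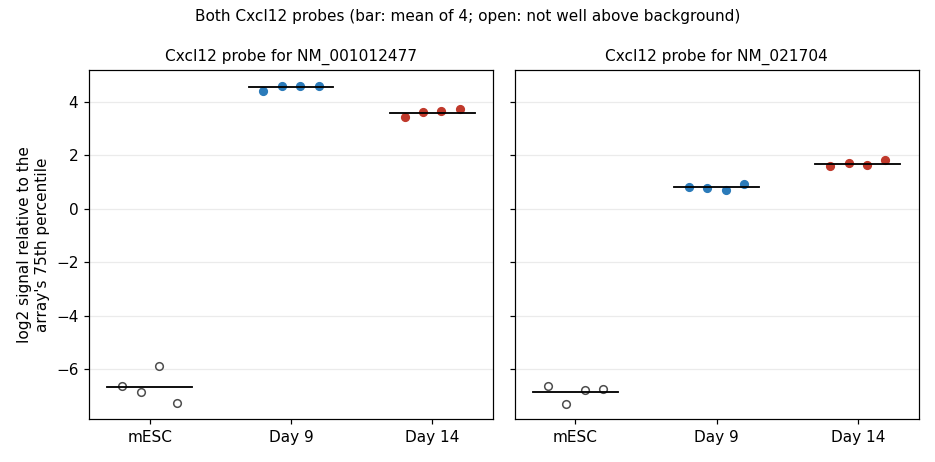
Log2 signal relative to the array's 75th percentile (vertical axis) of the probes annotated to NM_001012477 (left) and NM_021704 (right) in each group, with a bar at the mean of 4 arrays and open circles for arrays not well above background. From day 9 to day 14 the left probe goes from 4.54 to 3.60 and the right probe from 0.80 to 1.69.

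The day 9 arrays varied most for these genes. The median SD of the 10 genes over 4 arrays was 0.613 at day 9, 0.131 at day 14 and 0.300 in mESC, and over all tested genes it was 0.143, 0.0883 and 0.0780. Both replicates 1 and 4 were above both replicates 2 and 3 for 8 of the 10 genes (Ccl2, Ccl3, Ccl4, Ccl6, Ccl7, Ccl9, Cxcl1 and Pf4), an order that 28.6% of all tested genes had. Cxcl10 had the reverse order, shared by 23.2% of all genes, and Cxcl12 varied little (SD 0.092). Marker lists varied over the same arrays. The summed signal of 8 fibroblast markers was 417, 236, 301 and 399 times the 75th percentile in replicates 1 to 4, and that of 16 macrophage markers was 0.841, 0.680, 0.718 and 0.772. The sum of 8 cardiomyocyte markers was 213, 413, 389 and 295. Their part in the spread of the chemokine genes was not tested.

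**Figure D3:**
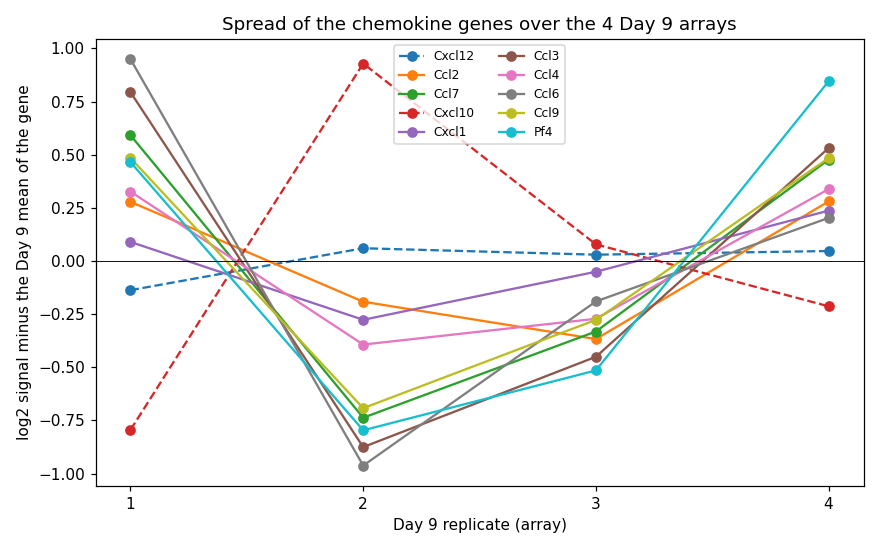
Deviation of each gene's log2 signal from its day 9 mean (vertical axis) on the 4 day 9 arrays (horizontal axis), 1 line per gene, with Cxcl10 and Cxcl12 dashed; the lines only join values of a gene, since arrays have no order. Of the 10 genes, 8 are higher in replicates 1 and 4 than in replicates 2 and 3, and Cxcl10 runs the other way.

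Of the other chemokine ligands, 16 of the 26 on the array could be tested, and most of those 16 were called higher at day 14 than in mESC. The rest were above background on at least 3 arrays in no group. Several tested ligands, among them Ccl5, Ccl11, Ccl12 and Ccl24, met that condition at day 14 only. For them a higher signal at day 14 was partly a condition for being tested. At day 9 against mESC 5 were called higher and 1 lower, at day 14 against mESC 11 were higher and 0 lower, and at day 14 against day 9 it was 9 and 0. These counts stand beside the shares of all genes given above and beside 21%, 24% and 3.6% of all genes called lower. Their median log2 changes were 0.23, 1.91 and 1.72. With normexp background correction the counts called higher fell to 1, 3 and 4, and with dim values raised to the dimmest detected signal 3 were called higher at day 9. The ligands higher at day 9 were the platelet chemokine Ppbp (at least 3.59-fold), Ccl27a, the B cell attractant Cxcl13, Ccl17 and Ccl24, which was near background in both groups.

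Cxcl14, an attractant of monocytes and dendritic cells, took a course that none of the 10 genes took: it stood at 0.87 in mESC, -2.58 at day 9 and 0.80 at day 14, a change of -3.45 ± 0.13 (log2, SE; adjusted p = 4.02e-10, limma) followed by a rise of 3.38 ± 0.13. Cx3cl1, a membrane-bound chemokine, was not called at day 9 and rose 3.19-fold between the days. Ccl11 and Ccl12 lie next to Ccl2 and Ccl7 in their cluster but were below background on all day 9 arrays. At day 14 they were at least 2.07-fold and at least 3.55-fold higher than at day 9. In the same way Ccl5, beside Ccl9, was not called in any comparison (largest change 0.66 ± 0.28, adjusted p = 0.0608), so not every gene of a cluster shared the course of its neighbours.

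Receptors for these ligands were mostly scarce. Of 20 signalling receptors on the array 9 could be tested; 3 were called higher at day 9 (20.1% of all genes were) and 4 at day 14 against mESC (22.8%), with 0 and 1 lower (21% and 24%). Between the days 2 were called higher (10.2%) and 1 lower (3.6%). With normexp the counts called higher against mESC fell to 0 and 2, and no receptor was called lower. The 1 lower at day 14 against mESC, Ccr7, rested on mESC replicate 1, which read -3.61 against -5.91 to -6.95 in the others, and without it the count was 0. Ccr1, Ccr2 and Cxcr2, the main receptors of Ccl6 and Ccl9, of Ccl2 and Ccl7, and of Cxcl1, were above background on at least 3 arrays in no group. Cx3cr1, the receptor of Cx3cl1, was at least 50.8-fold higher at day 14 than at day 9 (adjusted p = 4.15e-09, limma). It was above background on no mESC or day 9 array and so was tested only through day 14. Cxcr3, which binds Cxcl10, was not called (0.41 ± 0.19 between the days, adjusted p = 0.0787).

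The receptors of Cxcl12 were called higher at both days. Ackr3 went from -0.85 in mESC to 3.1 at day 9 and 3.08 at day 14, 15.4-fold and 15.2-fold above mESC (adjusted p = 1.34e-09 and 1.13e-09, limma), with a difference between the days of -0.02 ± 0.18. Cxcr4 was called higher at day 9 (1.19 ± 0.22), a call lost with normexp, and at day 14 (1.30 ± 0.22). Among the atypical receptors, which bind chemokines without G protein signalling, Ackr2, a scavenger of inflammatory CC chemokines, stood at -3.82 in mESC, -5.85 at day 9 and -3.38 at day 14, but only 1 of the 4 day 9 arrays was above background. It was called lower at day 9 and higher between the days, and neither call held with normexp. Ackr1 was not called on its brighter probe, which stood for the gene (1.66-fold and 1.83-fold above mESC). Its other probe was below background in mESC (-6.83) and above it on all 4 arrays at day 9 (-4.32) and at day 14 (-4.41). With the mean over the probes of a gene, the atypical receptors called higher against mESC went from 1 to 2 at both days.

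**Figure D4:**
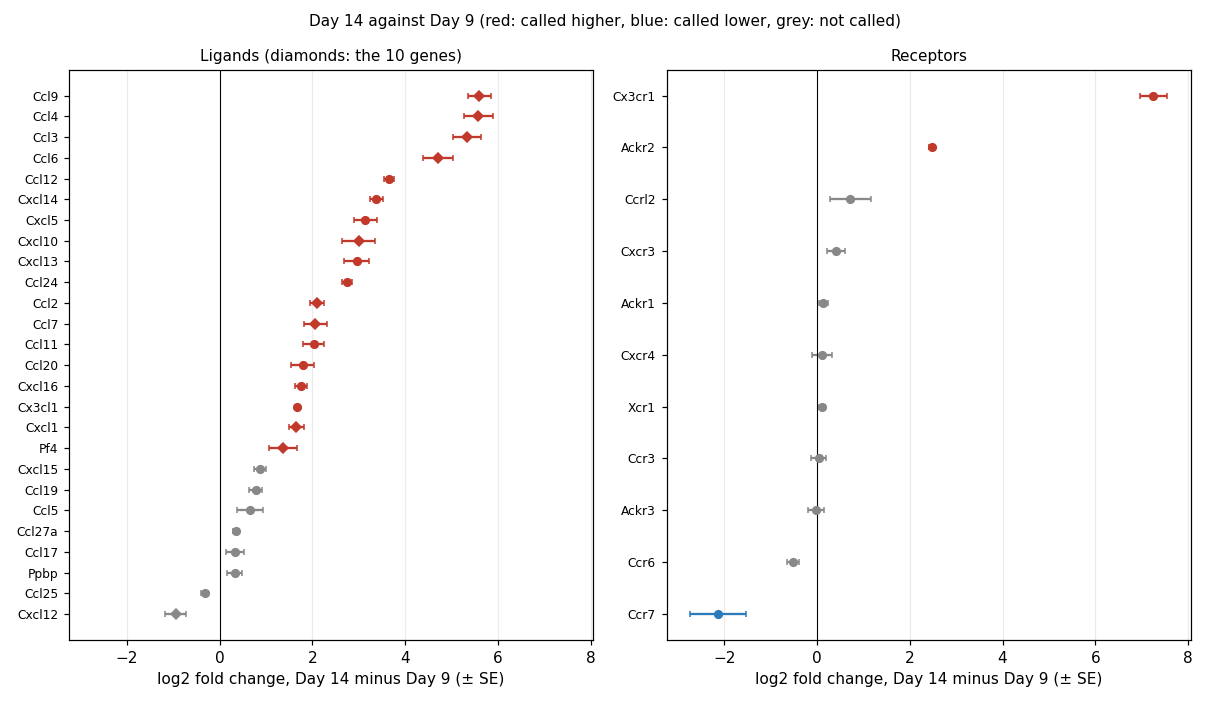
Log2 fold change of day 14 minus day 9 with its SE (horizontal axis) for tested ligands (left, the 10 genes as diamonds) and receptors (right), red where called higher, blue where called lower and grey where not called. Ccl9, Ccl4, Ccl3 and Ccl6 top the ligands at 4.71 to 5.60, Cxcl12 is lowest at -0.95, and Cx3cr1 leads the receptors shown.

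Genes that induce or relay chemokine expression were listed as well, and 14 of 19 on the array could be tested. At day 9 against mESC 2 were called higher and 2 lower (20.1% and 21% of all genes were), at day 14 against mESC 8 higher and 1 lower (22.8% and 24%), and between the days 5 higher and 0 lower (10.2% and 3.6%). With normexp the counts called higher fell to 1, 3 and 0, and with dim values raised to the dimmest detected signal 3 were called higher between the days. Csf1, the macrophage growth factor, was 44.9-fold higher at day 9 and 80.6-fold higher at day 14 than in mESC (5.49 ± 0.14 and 6.33 ± 0.14, log2, SE; adjusted p = 1.19e-11 and 3.19e-12, limma). Tnf, a main inducer of NF-kappaB, was below background on every mESC and day 9 array and at least 3.88-fold higher at day 14 than at day 9. Il6 was at least 1.44-fold and the endotoxin receptor Tlr4 at least 4.75-fold higher in that comparison, and Tnfaip3, an NF-kappaB target that limits the pathway, rose by 1.27 ± 0.10. Tnf, Il6 and Tlr4 were above background at day 14 only and were tested through that group. The count called higher between the days was thus partly fixed by the choice of genes to test. Relb, an NF-kappaB subunit, was lower at both days (-2.48 ± 0.04 and -1.94 ± 0.04).

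Marker lists of several cell types changed over the same groups, not all in the direction of the chemokine genes. At day 9 against mESC 2 of 16 macrophage markers were called higher and 2 lower (20.1% and 21% of all genes were). All 16 macrophage markers were called higher at day 14 than at day 9, where 10.2% of all genes were. Their summed signal was 1.77 to 2.06 times the 75th percentile in mESC, 0.680 to 0.841 at day 9 and 24.1 to 29.5 at day 14. At day 9, 8 of the 16 (Adgre1, Aif1, Fcgr1, C1qa, C1qc, Lyz2, Itgam and Spi1) were above background on no array and 7 were above it on all 4, as were Ccl2, Ccl7, Ccl9, Cxcl1, Cxcl10, Cxcl12 and Pf4. Fibroblast markers summed to 2.49 to 2.62 in mESC but to 236 to 417 at day 9 and to 535 to 591 at day 14. At each of the days against mESC 7 of the 8 were called higher (20.1% and 22.8% of all genes were) and 1 lower (21% and 24%). Between the days 3 were called higher (10.2%) and 1 lower (3.6%). Hepatic and visceral endoderm markers summed to 0.154 to 0.210 in mESC, then to 37.7 to 63.8 at day 9 and 192 to 207 at day 14. Endothelial markers peaked at day 9, with 5.36 to 8.36 against 2.97 to 3.31 at day 14. Of the 7, 6 were called lower between the days (3.6% of all genes were). The 7 tested megakaryocyte and platelet markers summed to 0.217 to 0.240 in mESC and 0.349 to 0.637 at day 9, and at day 14 they reached 0.848 to 0.908. Of 7 neutrophil markers on the array 4 and of 5 mast cell markers 1 were above background on no day 14 array. Only 3 of the neutrophil markers and 0 of the mast cell markers were above it on enough arrays to be tested. In bulk RNA, fewer cells of a type and less RNA per cell cannot be told apart, and the part of these cell types in the chemokine levels was not tested.

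**Figure D5:**
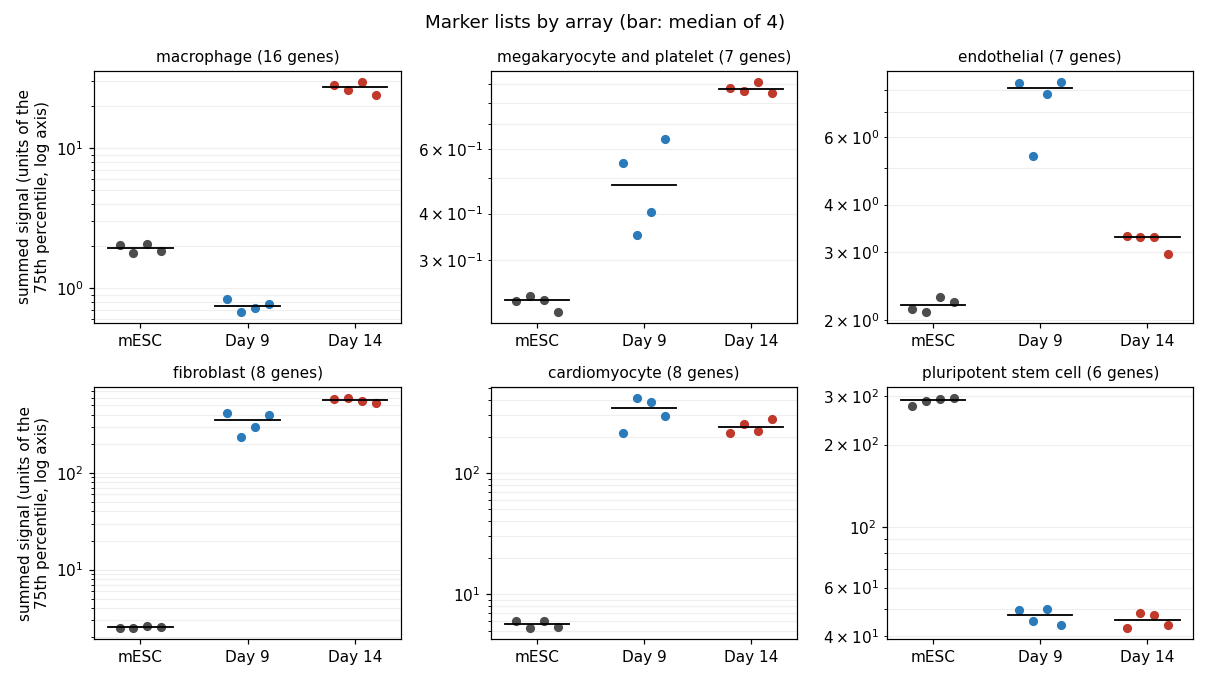
Summed signal of 6 marker lists in units of the array's 75th percentile (vertical axis, log scale) on each array by group (horizontal axis), with a bar at the median of 4. Macrophage markers lie at 0.680 to 0.841 at day 9 and 24.1 to 29.5 at day 14, whereas fibroblast markers are already at 236 to 417 at day 9.

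The genes whose patterns over the 12 arrays lay nearest to each chemokine gene, by Euclidean distance after centring, are given as a description. For Ccl7 they were Col12a1 (0.665), a fibril-associated collagen, and Olfml3 (0.672), and for Ccl2 they were Sardh (0.771) and Tgfb3 (0.874). For the late gene Ccl3 they were Cd52 (0.764), a leukocyte surface antigen, and Casp1 (0.981), the inflammatory caspase, and for Ccl9 Ptprc (0.981), the pan-leukocyte phosphatase CD45, came first, followed by the mesodermal transcription factor Meox2 (1.23). The other late genes had other neighbours: Prelp (1.1), a matrix proteoglycan, and Ncf4 (1.15) for Ccl4, and Abca9 (0.934) and Trpm5 (1.01) for Ccl6. Lyl1 (0.850), a haematopoietic transcription factor, was nearest to Pf4. Cxcl10 and Cxcl12 had no near companion: their nearest genes, Apoa2 and Igf2, lay at 1.70 and 1.92.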

How the data were processed

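Per the file headers, each 1-colour array was extracted with Agilent Feature Extraction (version 12, per the submitters' processing notes). The deposited processed signal is a background-subtracted intensity on a linear scale, and the deposited series table held the same intensities, with 0 values differing. The other deposited columns used are flags of background, saturation and outliers, per the file headers. Control spots and outlier spots were left out, spots of a probe were averaged on the log2 scale, and each array's 75th percentile was subtracted. Probes were named by RefSeq accession (GRCm38.p6 tables), and sequences are RefSeq's of that build. A probe was tested if well above background on at least 3 arrays of 1 group, and the brightest tested probe stood for its gene (20875 genes). limma 3.58.1 in R 4.3.3 fitted group means over all 12 arrays. Tests are two-sided. The script was tested on simulated data.

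The 10 genes, all lists and the promoter motifs were chosen with earlier results of these data known. Named genes were the 10 with every probe, the called list members of largest change, the 10 genes' receptors, and up to 2 genes of like pattern; Ccl5, Ccl11, Ccl12 and Tnfaip3 were named beyond that where needed. Some genes counted in the lists are not reported here by name. In all 13 other settings, and another chosen after the data were seen, were tried. The number of arrays limits the precision.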

Additional observations from a re-analysis of the deposited data

Results flagged for a closer look

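In 30 groups of 4 arrays, a pair of single arrays stood far from the other 3: Cxcl1 in day 14 replicate 4 was -2.61 against -2.96 to -2.91 in the others, and Cxcl12 in day 9 replicate 1 was 4.40 against 4.57 to 4.60. Chance marks about 1 group in 20.

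The change against mESC differed between day 14 and day 9 for 9 of the 10 genes, where 13.8% of all tested genes were called. It was tested as the contrast of the days, which share the mESC arrays, so these are the day 14 against day 9 changes already given above. The difference was 5.60 for Ccl9, 5.58 for Ccl4, 5.34 for Ccl3, 4.71 for Ccl6, 3.0 for Cxcl10, 2.09 for Ccl2, 2.06 for Ccl7, 1.66 for Cxcl1 and 1.37 for Pf4 (log2).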

How the results depend on the processing

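With normexp background correction 3 of the 10 genes were called higher at day 9 against mESC, and the counts over all genes were 4744 for day 9 and 5836 for day 14 against mESC, with 1227 for day 14 against day 9. Ccl4 and Ccl6 turned sign there at day 9 (-0.00196 and -0.00129). With probes above background on all 12 arrays 1 gene, Pf4, was left and was called in each comparison, and 5482, 6422 and 1303 genes were called. With no minimum fold change 17398, 17764 and 13223 genes were called. With dim values raised to the dimmest detected signal 5 of the 10 and 7782 of all genes were called at day 9. Leaving out 1 array gave 8 to 9, 10 and 9 of the 10, and 8542 to 8619, 9745 to 9794 and 2841 to 2925 of all genes. With the replicate number as a block the counts were 9, 10 and 9 of the 10 and 8565, 9774 and 2875 of all. No pairing of samples by number was seen. Of 12 same-number pairs 1 correlated above 0.1, and 3 of 12 arrays correlated best with their own number. With 4 arrays in a group, a weak pairing could have been missed. Normexp also ended the day 9 calls of Ccl7 (0.70), Cxcl10 (0.78), Ccl9 (0.12) and Cxcl1 (0.16), and that of Cxcl1 between the days (0.93). In all, 553 of the comparisons of a gene with an alternative kept direction and call, 15 kept direction and lost a call, 2 turned sign and lost it, and 3 gained a call. Signal near background limits the day 9 sizes of Ccl3, Ccl4, Ccl6, Ccl7, Ccl9, Cxcl1 and Cxcl10.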
